A study of Mus musculus with 9 samples.

Results

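The metabolic nuclear receptors and the PGC-1 coactivators were followed as 10 genes chosen by name: Ppara, Ppard, Pparg, Rxra, Nr1h4, Esrra, Esrrg, Ppargc1a, Ppargc1b and Nr0b2. All 10 had a probe set with a single gene symbol, out of 22180 genes so represented, and all 10 were among the 17740 genes bright enough to be tested. Kidney cortex of male mice on the C57BLKS/J background, aged 20 weeks, was hybridised to 9 Affymetrix arrays, and the labels call the 3 arrays of each group biological replicates. The db/m mice carry a single mutant copy of the leptin receptor gene and are lean, and the labels used here give no treatment for them. The db/db mice carry the mutation on both copies, become obese and diabetic, and received saline. The db/db+TSF mice share that genotype and received a Chinese herbal mixture, Tang-shen Formula (TSF), by gavage for 12 weeks at 2.4 g/kg/day. The labels give 9 mice in each of these treatment arms and do not say how the 3 arrayed samples were taken from them. The samples used here hold no lean mice given TSF.

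Ppara, the receptor that switches on fatty acid oxidation, was the only member to pass the test. It was 1.64-fold higher in db/db+TSF than in db/m, with db/db between them. No member passed when db/db was set against db/m, where 1.05% of all genes passed, or db/db+TSF against db/db, where 0% did. In db/db+TSF against db/m 3.13% of all genes passed. The Ppara call held in 5 of the 9 fits with an array left out. Those were the fits without db/m replicate 2, without db/db+TSF replicate 1, and without each db/db array in turn. Leaving out a db/db array cannot change this difference, only its standard error and the adjustment. The largest differences of members between the diabetic groups that did not pass were those of Ppara, Pparg and Ppargc1b.

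Nuclear receptors of this group are transcription factors that sense lipids. The peroxisome proliferator-activated receptors (PPARs, encoded by Ppara, Ppard and Pparg) bind fatty acids, the farnesoid X receptor (FXR, Nr1h4) binds bile acids, and both kinds bind DNA as pairs with the retinoid X receptor alpha (Rxra). The oestrogen-related receptors (ERRs, Esrra and Esrrg) bind DNA without a known natural hormone and drive mitochondrial genes. The coactivators PGC-1alpha (Ppargc1a) and PGC-1beta (Ppargc1b) do not bind DNA themselves; they dock on PPARs and ERRs and raise mitochondrial output. The small heterodimer partner (Nr0b2) lacks a DNA-binding domain and represses other receptors, classically after FXR induces it. The proximal tubule, the bulk of the cortex, lives mainly on fatty acid oxidation and is rich in PPAR alpha and PGC-1alpha. PPAR gamma is best known from fat cells and, in the kidney, from the collecting duct.

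Promoter sequences are shown for Ppara, the member that passed, and for Cd36, the classical PPAR target that differed most. Both are the 250 bases before the RefSeq start site on GRCm38.p6, printed 5′ to 3′ on the strand of the gene, with matches to the searched motifs in capitals.
Ppara (chr15:85735526-85735775, plus strand): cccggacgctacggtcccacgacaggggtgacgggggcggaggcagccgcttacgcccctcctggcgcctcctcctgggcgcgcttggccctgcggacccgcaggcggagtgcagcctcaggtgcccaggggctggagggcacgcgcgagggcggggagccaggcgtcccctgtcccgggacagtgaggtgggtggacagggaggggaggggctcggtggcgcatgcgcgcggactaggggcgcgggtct
Cd36 (chr5:17835897-17836146, minus strand): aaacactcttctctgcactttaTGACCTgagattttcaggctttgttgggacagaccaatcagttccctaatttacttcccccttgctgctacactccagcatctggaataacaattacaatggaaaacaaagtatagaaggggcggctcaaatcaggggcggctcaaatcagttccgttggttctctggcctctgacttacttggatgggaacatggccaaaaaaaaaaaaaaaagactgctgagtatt

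The capitals in the Cd36 promoter are the reverse complement of AGGTCA, the hexamer that these receptors share, whose first base is at -228 from the start site. Windows of 300 bases (250 before to 50 after the start) were searched on both strands for 6 motifs. AGGTCA was in 16.3% of all 32851 RefSeq windows. Longer motifs that contain it were rarer: the direct repeat AGGTCANAGGTCA read by PPARs with RXR in 0.0396%, the inverted repeat AGGTCANTGACCT read by FXR with RXR in 0.00913%, and the ERR element TCAAGGTCA in 0.423%. The E-box CACGTG was in 7.15% and the cyclic AMP response element TGACGTCA in 1.79%. Of the 10 members 9 were searched. Ppargc1b was not among them, as a chromosome was left out of the search for named genes. Pparg, Rxra and Nr1h4 held AGGTCA, against 18.1% of all 27025 genes with a window, and Nr0b2 held CACGTG. The members searched had 15 windows, 3 of them for Pparg and 2 for Rxra. A gene with more windows has more chances to hold a motif, so shares per gene are not a like comparison. The Ppara window held none of the 6 motifs, which says only that these letters are not in this window.

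**Figure D1:**
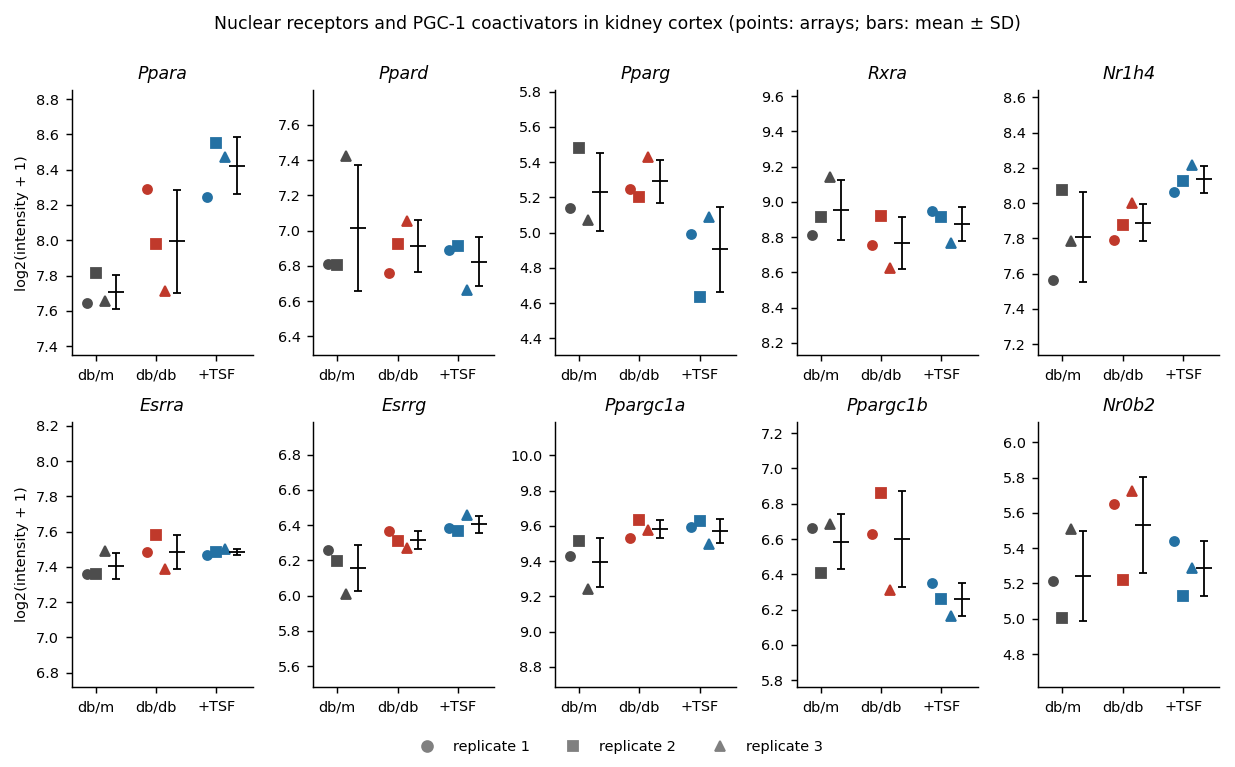
Levels of the 10 members on the log2(intensity + 1) scale, 1 panel per gene, with each array as a point, replicates 1 to 3 as circle, square and triangle, and the group mean ± SD as a black bar. All panels span the same log2 range, so heights compare within and between panels as differences; Ppara is the gene whose db/db+TSF arrays all lie above 8.2 while its db/m arrays reach no higher than 7.82.

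Array medians differed little, with a largest gap of 0.11 on the log2 scale. The levels given below are log2(intensity + 1), and a difference of 1 is a doubling on that scale. Levels of different genes come from different probes and are not set against each other. The 10 proximal tubule markers, such as Lrp2 and Slc34a1, had a mean level between 11.20 and 11.33 in every array. These markers cannot tell cortex from whole kidney. Between db/db+TSF and db/m 3 of them were higher without overlap and 2 lower. db/db replicate 3 stood apart in its neutrophil markers: the summed level of 5 of them was 22.7 there and 12.4 to 13.7 in the other 8 arrays. db/m replicate 2 stood apart in its adipocyte markers: the summed level of 4 of them was 17.3 there and 12.7 to 13.8 in the other arrays. db/db+TSF replicate 2 lay at the low end of the second principal component, at -19.9 against 1.13 and -7.46 for its group and -9.40 to 18.4 for the other groups. Its summed level of 4 hepatocyte markers was 23.4, against 25.5 and 25.8 in its group, 22.9 to 25.1 in db/m and 25.1 to 25.5 in db/db. With db/db replicate 3 or db/m replicate 2 left out the members called were 0, 0 and 1 in the 3 comparisons, as with all arrays, and the called one was Ppara; without db/db+TSF replicate 2 they were 0 in each. Since the samples are bulk tissue, fewer cells of a type and less RNA per cell cannot be told apart.

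Among the PPARs, Ppara measured 7.65, 7.82 and 7.65 in db/m replicates 1 to 3. In db/db it measured 8.29, 7.98 and 7.71. In db/db+TSF the arrays gave 8.24, 8.55 and 8.47. The db/m and db/db+TSF arrays did not overlap, while db/db spanned the gap: its replicate 3 lay within the db/m range and its replicate 1 within the db/db+TSF range. The means were 7.71 ± 0.10, 7.99 ± 0.29 and 8.42 ± 0.16 (SD, n = 3). Ppara rose by 0.72 in db/db+TSF against db/m (SE 0.14, 95% interval 0.40 to 1.03, limma adjusted p = 0.0239). The difference of db/db+TSF from db/db was 0.43 (0.12 to 0.74, adjusted p = 0.317), and that of db/db from db/m was 0.29 (-0.025 to 0.60, adjusted p = 0.397). These comparisons share arrays and are not independent of each other.

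The call for Ppara was lost in 4 of the 9 fits with an array left out, each of them omitting a db/m or db/db+TSF array. The adjusted p was 0.0806 when db/m replicate 1 was omitted and 0.0665 when its replicate 3 was. For db/db+TSF it was 0.0916 on omitting replicate 2 and 0.0898 on omitting replicate 3, and without moderation of the variances it was 0.133. The difference itself stayed between 0.65 and 0.81 over the 9 fits. In the fits without a db/db array it is 0.72 by construction, as db/db does not enter it. Without db/db replicate 3, the array with high neutrophil markers, the difference of db/db from db/m was 0.43 (adjusted p = 0.23), and that of db/db+TSF from db/db 0.29 (adjusted p = 0.456). Without db/db replicate 1 they moved the other way, to 0.14 (adjusted p = 0.737) and 0.58 (adjusted p = 0.34). Without db/m replicate 2 the difference of db/db+TSF from db/m was 0.77 (adjusted p = 0.0435). Without db/db replicate 3 it was necessarily unchanged at 0.72 (adjusted p = 0.0116). Of the 10 markers of the proximal tubule, the segment known for Ppara, 0 passed between db/m and db/db+TSF (3 at an unadjusted p under 0.05), and their summed level was 111.99 to 113.3 in the former and 112.9 to 113.1 in the latter.

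Ppard, the PPAR found in nearly all tissues, showed no difference past the threshold. Its db/m arrays measured 6.81, 6.80 and 7.42, the db/db arrays 6.76, 6.92 and 7.06, and the db/db+TSF arrays 6.89, 6.91 and 6.67. Replicate 3 of db/m was the highest of all 9 arrays, and the groups overlapped in every comparison. The differences were -0.099 in db/db against db/m (-0.45 to 0.26), -0.089 in db/db+TSF against db/db (-0.44 to 0.27) and -0.19 in db/db+TSF against db/m (-0.54 to 0.17). Without db/m replicate 3 the first turned to 0.11 and the last to 0.018. A second, dimmer probe set that carries the names of both Ppard and 1810013A23Rik was not used.

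Pparg, the adipogenic PPAR, was lowest in the treated mice. It measured 5.14, 5.48 and 5.07 in db/m, 5.24, 5.20 and 5.43 in db/db, and 4.99, 4.63 and 5.09 in db/db+TSF. Every db/db+TSF array lay below every db/db array, and db/db+TSF replicate 2 was the lowest of all. The difference of db/db+TSF from db/db was -0.39 (SE 0.14, -0.70 to -0.072) and did not pass (adjusted p = 0.356). Against db/m it was -0.33 (-0.64 to -0.011, adjusted p = 0.271), and db/db and db/m differed by 0.061 (-0.25 to 0.38). The highest db/m value came from replicate 2, the array with high adipocyte markers, among them Retn at 5.60 there and 3.22 and 3.28 in the other db/m arrays. Without that array the differences of db/db+TSF and of db/db from db/m were -0.20 and 0.19 (adjusted p = 0.496 and 0.573). Without db/db+TSF replicate 2 the difference of db/db+TSF was -0.25 from db/db and -0.19 from db/m (adjusted p = 0.72 and 0.638). The part of fat cells in the Pparg values was not tested. Of 4 adipocyte markers 0 passed in any comparison, and of 7 collecting duct markers 0 passed either. All 7 collecting duct markers nevertheless lay above 0 in db/db against db/m, 3 of them at an unadjusted p under 0.05. In db/db+TSF against db/m 5 lay above 0 and 2 below, with 4 at that level.

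Rxra, the shared partner of PPARs and FXR, measured 8.81, 8.91 and 9.14 in db/m. The db/db arrays gave 8.76, 8.92 and 8.63 and the db/db+TSF arrays 8.95, 8.91 and 8.77. The groups overlapped throughout. The differences were -0.19 (-0.44 to 0.064) for db/db against db/m, 0.11 (-0.14 to 0.36) for db/db+TSF against db/db and -0.077 (-0.33 to 0.17) for db/db+TSF against db/m. With single arrays left out the first ranged from -0.26 to -0.095 (without db/m replicate 3) and the second from 0.039 (without db/db replicate 3) to 0.18 (without db/db replicate 2). The last ranged from -0.15 (without db/m replicate 1) to 0.015 (without its replicate 3).

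Nr1h4, the bile acid receptor FXR, had its highest values after treatment. It measured 7.56, 8.07 and 7.79 in db/m, 7.79, 7.87 and 8.0 in db/db and 8.06, 8.13 and 8.21 in db/db+TSF. The db/db+TSF arrays lay above every db/db array and overlapped db/m at its replicate 2. The difference of db/db+TSF from db/db was 0.25 (SE 0.13, -0.030 to 0.52, adjusted p = 0.463). Against db/m it was 0.33 (0.052 to 0.60, adjusted p = 0.208), and db/db and db/m differed by 0.081 (-0.19 to 0.36). The sign of the last turned without db/m replicate 1 (-0.040), and the difference of db/db+TSF from db/m was then 0.21. Without db/m replicate 2 these were 0.21 and 0.46 (adjusted p = 0.404 and 0.072).

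Nr0b2, the repressor that FXR induces in liver, followed another order. Its values were 5.22, 5.0 and 5.51 in db/m, 5.65, 5.22 and 5.72 in db/db, and 5.44, 5.13 and 5.29 in db/db+TSF. The groups overlapped in all comparisons, with the highest 2 values in db/db. The differences were 0.29 (-0.061 to 0.64) in db/db against db/m, -0.25 (-0.60 to 0.10) in db/db+TSF against db/db and 0.043 (-0.31 to 0.39) in db/db+TSF against db/m. On omitting db/m replicate 2 the first was 0.17. Omitting replicate 3 of db/db gave 0.19 for the first and -0.15 for the second, and omitting its replicate 2 gave 0.45 and -0.40.

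Of the ERRs, Esrra was nearly level. It measured 7.36, 7.36 and 7.49 in db/m, 7.48, 7.58 and 7.39 in db/db and 7.47, 7.48 and 7.50 in db/db+TSF. The difference was 0.080 for db/db against db/m (-0.11 to 0.27) and 0.0018 for db/db+TSF against db/db (-0.19 to 0.19). For db/db+TSF against db/m it was 0.082 (-0.11 to 0.28), and the 3 intervals lie between -0.19 and 0.28.

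Esrrg, the ERR with its highest levels in kidney, heart and other oxidative tissues, was lowest in db/m. It measured 6.26, 6.20 and 6.01 in db/m, 6.37, 6.31 and 6.27 in db/db and 6.39, 6.37 and 6.46 in db/db+TSF. Every diabetic array, treated or not, lay above every db/m array, although db/m replicate 1 and db/db replicate 3 nearly met. The difference was 0.16 for db/db against db/m (SE 0.092, -0.042 to 0.36, adjusted p = 0.471) and 0.25 for db/db+TSF against db/m (0.046 to 0.45, adjusted p = 0.193). Between the diabetic groups it was 0.087 (-0.11 to 0.29). Without db/m replicate 3, the lowest array, the differences from db/m were 0.088 and 0.18.

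The coactivator Ppargc1a measured 9.43, 9.51 and 9.24 in db/m. It gave 9.53, 9.63 and 9.57 in db/db and 9.59, 9.63 and 9.498 in db/db+TSF. The db/db arrays all lay above the db/m arrays, and db/db+TSF overlapped both groups. The difference was 0.19 for db/db against db/m (SE 0.095, -0.024 to 0.40, adjusted p = 0.415) and 0.18 for db/db+TSF against db/m (-0.031 to 0.39, adjusted p = 0.378). Between db/db+TSF and db/db it was -0.0073, with an interval of -0.22 to 0.20. Without db/m replicate 3, again the lowest array, the differences from db/m were 0.11 for db/db and 0.10 for db/db+TSF.

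Ppargc1b, its relative, was lowest in the treated group. It measured 6.66, 6.41 and 6.69 in db/m, 6.63, 6.86 and 6.31 in db/db and 6.35, 6.26 and 6.17 in db/db+TSF. The db/db+TSF arrays lay below every db/m array but overlapped db/db at its replicate 3. The difference from db/db was -0.34 (SE 0.14, -0.64 to -0.040, adjusted p = 0.386), and from db/m -0.33 (-0.63 to -0.024, adjusted p = 0.252). Between db/db and db/m it was 0.016 (-0.29 to 0.32), and its sign turned on omitting replicate 2 of db/m (-0.073) or of db/db (-0.11). The difference of db/db+TSF from db/db was -0.21 on omitting db/db replicate 2 and -0.49 on omitting db/db replicate 3. Ppargc1a and Ppargc1b thus had means in different orders across the groups, and the difference between these genes was not tested.

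**Figure D2:**
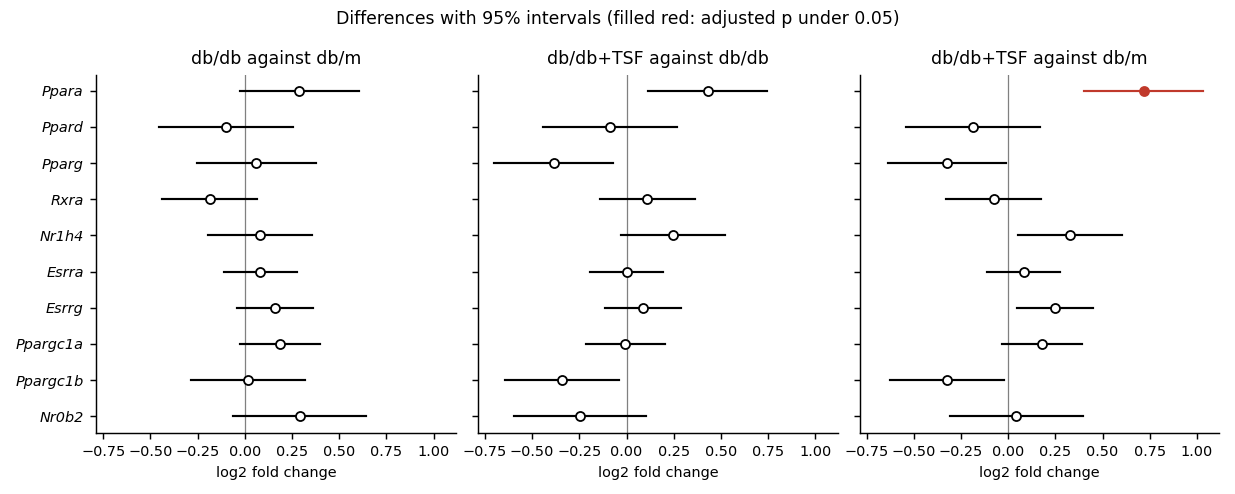
Log2 fold changes of the 10 members in the 3 comparisons (horizontal axis), as points with 95% intervals from the moderated fit; filled red marks an adjusted p under 0.05. Ppara in db/db+TSF against db/m (0.72) is the only filled point, and in db/db against db/m every interval includes 0.

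The members' counts are given beside those of all genes, and the same shares are the background for the list counts further on. For db/db against db/m limma called 0 of 10 members, where 1.05% of all genes were called (0.592% higher and 0.462% lower), and the test without moderation also called 0. At an unadjusted p under 0.05 there were 0 members, against 13.9% of genes. For db/db+TSF against db/db it called 0 members and 0% of all genes, with 3 members (Ppara, Pparg and Ppargc1b) at an unadjusted p under 0.05 against 11.7% of genes. For db/db+TSF against db/m it called 1 member, higher, against 3.13% of genes (1.22% higher and 1.92% lower). There 5 members had an unadjusted p under 0.05 (Ppara, Pparg, Nr1h4, Esrrg and Ppargc1b) against 17.2% of genes.

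Groups without overlap were counted next. Between db/db and db/m they numbered 2 of 10, both higher, against 18.6% of genes (10.4% higher and 8.28% lower). Between db/db+TSF and db/db there were 2, 1 higher and 1 lower, against 20.1% (7.81% higher and 12.3% lower). Between db/db+TSF and db/m there were 3, 2 higher and 1 lower, against 22.1% (9.76% higher and 12.4% lower). The median member differed by 0.081, -0.0027 and 0.063 in the 3 comparisons, and the median gene by 0.0099, -0.024 and -0.00018.

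The 3 genes whose array profile was nearest to that of Ppara, after removing each gene's mean, were Ces1d, Itch and Gm9349. The root mean square difference over the 9 arrays was 0.13, 0.13 and 0.15, and the spread of Ppara itself was 0.34. Ces1d encodes a carboxylesterase, and Itch a ubiquitin ligase. Ces1d averaged 7.35, 7.80 and 8.09 in db/m, db/db and db/db+TSF. They were picked for likeness, so their differences are a description only.

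Genes that PPARs regulate were examined next, as 36 measured genes of fatty acid uptake, oxidation and storage. Few of them passed, and those that did went in both directions. In db/db against db/m 1 rose and 1 fell, and 34 did not pass (median -0.064, against 0.0099 for all genes). Against the same db/m arrays, db/db+TSF also had 1 that rose and 1 that fell (median 0.037), and 4 passed when db/m replicate 3 was left out. The gene that rose in both was Cyp4a14, a fatty acid omega-hydroxylase and classical PPAR alpha target, and the gene that fell in both was Cd36, the fatty acid translocase.

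Cyp4a14 measured 10.02, 10.29 and 10.48 in db/m, 11.07, 11.003 and 11.38 in db/db and 11.29, 11.27 and 11.21 in db/db+TSF. All diabetic arrays were above all db/m arrays, and the treated and untreated ones overlapped. It rose by 0.99 in db/db+TSF against db/m (SE 0.13, adjusted p = 0.0033). Cd36 measured 10.16, 9.9998 and 9.91 in db/m, 7.98, 8.03 and 7.96 in db/db, and 7.52, 6.11 and 7.49 in db/db+TSF. The 3 groups did not overlap, and db/db+TSF replicate 2 was far below the other arrays. Cd36 fell by 2.99 in db/db+TSF against db/m (SE 0.29, adjusted p = 5.7e-04), and its difference from db/db of -0.95 did not pass (adjusted p = 0.289).

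Between db/db+TSF and db/db limma called 0 of the 36 (0 without moderation too), and 5 had an unadjusted p under 0.05. Those of smallest p were Angptl4 (1.03), a secreted lipase inhibitor, Cd36 and Pdk4 (1.26), the kinase that shuts off pyruvate oxidation. Angptl4 measured 8.52, 9.04 and 9.21 in db/m, 8.07, 7.53 and 8.80 in db/db and 9.45, 8.82 and 9.22 in db/db+TSF. Its diabetic groups did not overlap (adjusted p = 0.284), while the treated arrays overlapped db/m. Pdk4 measured 7.11, 7.51 and 8.65 in db/m, 7.07, 6.16 and 8.13 in db/db and 9.02, 7.77 and 8.35 in db/db+TSF. Its diabetic groups overlapped (adjusted p = 0.382), and so did the treated arrays and db/m. In both genes db/db replicate 2 was the lowest of the 9 arrays. The list's median was 0.054 in this comparison, against -0.024 for all genes.

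Mitochondrial genes served by PGC-1 and ERRs, 26 in all, gave 0 calls by limma in each comparison, and without moderation also 0. With db/db replicate 2 or db/db+TSF replicate 1 left out, 1 gene passed between db/db+TSF and db/m. At an unadjusted p under 0.05 there were 2 in db/db against db/m, 1 in db/db+TSF against db/db and 3 in db/db+TSF against db/m. In the first comparison 19 of 26 lay above 0 (median 0.075, against 52.2% of all genes above 0), and Idh3a (0.33), Slc25a4 (0.26) and Cox4i1 (0.18) had the smallest p. In the last, 22 of 26 lay above 0 (median 0.081, against 49.96% of all genes), led by Cox5b (0.64, adjusted p = 0.0511), Slc25a4 (0.38) and Mfn1 (0.29). Cox5b is a subunit of cytochrome c oxidase, and Slc25a4 exchanges ADP for ATP across the inner membrane. Between the diabetic groups the median was 0.011, with Cycs (0.29), Tfb2m (0.23) and Cox5b (0.31) of smallest p.

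Bile acid genes were taken as the setting of FXR and its repressor partner: 19 were measured and 16 were bright enough to be tested, leaving out Abcb11, Klb and Cyp7a1. In db/db against db/m 1 rose and 1 fell (median -0.083), Abcc4 and Cyp7b1. There 3 of the 16 had an unadjusted p under 0.05, against 13.9% of genes. For db/db+TSF against db/m Abcc4 and Cyp27a1 rose and Cyp7b1 fell (median 0.032). In that comparison 7 of the 16 had an unadjusted p under 0.05, against 17.2% of genes. Without overlap were 5 higher and 6 lower, against 9.76% and 12.4% of genes. Between the diabetic groups limma called 0, also without moderation (median 0.035), and 4 had an unadjusted p under 0.05; Cyp8b1 (0.41), Cyp7b1 (-1.05) and Abcb4 (-0.28) had the smallest p.

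Abcc4, an efflux pump that exports bile acids and organic anions, measured 7.35, 7.60 and 7.78 in db/m. It gave 8.49, 8.68 and 8.30 in db/db and 8.61, 8.89 and 8.59 in db/db+TSF, all above db/m. The rise in db/db+TSF against db/m was 1.12 (SE 0.14, adjusted p = 0.00229), and that in db/db was 0.92 (adjusted p = 0.0115, or 0.0536 on omitting db/db replicate 1). Cyp7b1, an oxysterol hydroxylase of bile acid synthesis that androgens raise in the male kidney, was far lower in both diabetic groups. It measured 10.01, 9.53 and 9.87 in db/m, 6.70, 7.36 and 6.82 in db/db and 6.40, 4.74 and 6.58 in db/db+TSF, and fell by 3.89 in the latter against db/m (SE 0.39, adjusted p = 6.2e-04). Cyp27a1, a mitochondrial sterol hydroxylase, rose by 0.44 from 8.78 ± 0.14 in db/m to 9.22 ± 0.021 in db/db+TSF (SD, n = 3; adjusted p = 0.0447). That call held in 1 of the 9 fits with an array left out, the one without db/db replicate 3, an array outside this comparison. On omitting db/m replicates 1, 2 and 3 in turn the adjusted p was 0.139, 0.079 and 0.0505. For replicates 1 and 2 of db/db it was 0.0532 and 0.0662, and for the 3 of db/db+TSF 0.11, 0.123 and 0.132.

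Of 35 other nuclear receptors tested, 0 passed in db/db against db/m by limma (6 at an unadjusted p under 0.05, and 0 without moderation), although 1 did when db/db+TSF replicate 2 was left out. Esr1 (-0.88), Nr1i2 (0.66) and Rarb (0.60) had the smallest p. Between db/db+TSF and db/db 0 passed (8 at an unadjusted p under 0.05, and 0 without moderation), with Nr2f2 (-0.34), Hnf4g (-0.49) and Nr1d1 (-0.75) of smallest p. Against db/m, 3 fell and 0 rose in db/db+TSF, where 1.92% of all genes were called lower and 1.22% higher. There 14 had an unadjusted p under 0.05, against 17.2% of genes, and the median was 0.044.

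The receptors that fell were Nr1d1, Esr1 and Hnf4g. Nr1d1 encodes REV-ERB alpha, a repressor of the circadian clock, and measured 8.71, 9.04 and 9.31 in db/m, 8.73, 8.85 and 7.96 in db/db and 7.66, 7.80 and 7.83 in db/db+TSF. Every treated array was below every other array, and the fall against db/m was 1.26 (SE 0.22, adjusted p = 0.0118). Esr1, the oestrogen receptor alpha, measured 7.42, 7.13 and 7.13 in db/m, 6.49, 6.39 and 6.15 in db/db, and 6.30, 5.62 and 6.53 in db/db+TSF. It fell by 1.08 against db/m (SE 0.20, adjusted p = 0.0168), a call that did not hold when db/m replicate 1 was omitted (0.0706). Hnf4g, a relative of the proximal tubule regulator Hnf4a, fell by 0.70 from 6.41 ± 0.13 to 5.70 ± 0.25 (SD, n = 3; adjusted p = 0.0226). The Hnf4g call did not hold on omitting replicate 1 (0.0834) or 2 (0.0575) of db/m, nor replicate 1 (0.0709) or 2 (0.0893) of db/db+TSF.

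Among 17 other coactivators and corepressors limma called 0 between db/db and db/m (2 at an unadjusted p under 0.05) and 0 between the diabetic groups (0 at that level), and without moderation both counts were also 0. Nrip1 (0.35), a corepressor of PPARs and ERRs, Ncoa4 (0.43) and Tbl1xr1 (0.37) had the smallest p in the first, and Ncoa3 (-0.19), Ncoa2 (-0.20) and Lpin1 (0.22) in the second. Ncoa4, better known for sending ferritin to autophagy, rose by 0.59 from 5.97 ± 0.11 in db/m to a treated mean of 6.56 ± 0.11 (SD, n = 3; adjusted p = 0.0239). That call failed on omitting replicate 1 (0.0752) or 3 (0.0646) of db/m, or replicate 1 (0.0721) or 3 (0.088) of db/db+TSF.

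The 22 genes of regulators that act on PGC-1alpha, among them AMP kinase subunits and CREB, gave 0 calls in db/db against db/m (3 at an unadjusted p under 0.05, median 0.10). Nampt (0.53), Prkab2 (0.33) and Creb1 (0.34) had the smallest p. Between the diabetic groups limma called 0 (2 at an unadjusted p under 0.05, median -0.034), with Stk11 (-0.28), Creb1 (-0.32) and Foxo1 (0.22) of smallest p; without moderation both counts were 0. Nampt, which makes the NAD precursor on which sirtuins depend, was the gene of this list that rose in db/db+TSF against db/m. It measured 9.30, 9.20 and 8.78 in db/m, 9.73, 9.45 and 9.67 in db/db and 9.79, 9.83 and 9.92 in db/db+TSF, with no overlap between the 3 groups. The rise against db/m was 0.76 (SE 0.13, adjusted p = 0.0144), and the adjusted p was 0.0648 on omitting db/db+TSF replicate 3. Without moderation no call of the 6 lists held.

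**Figure D3:**
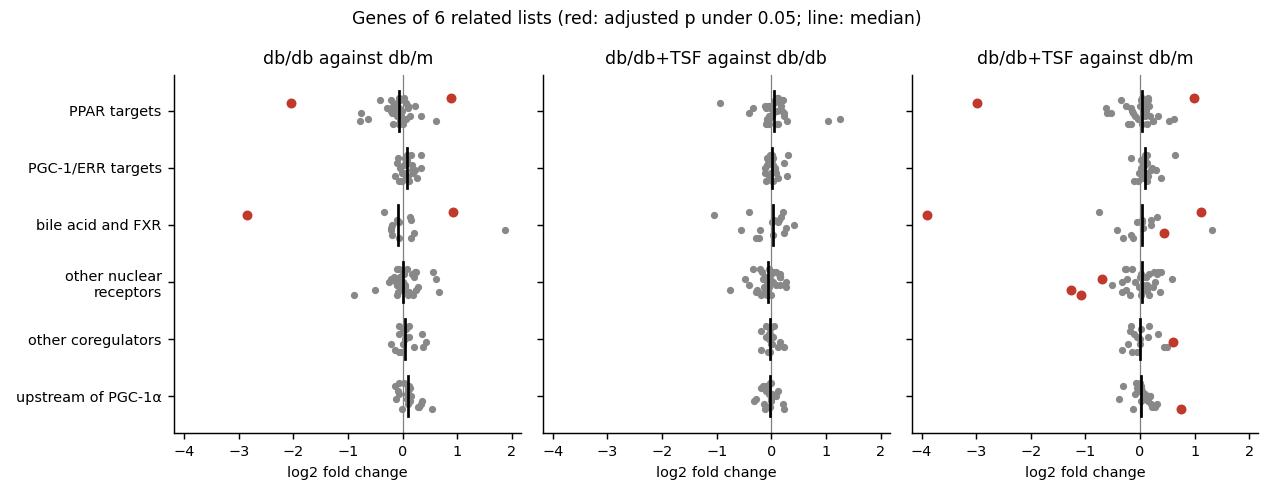
Log2 fold changes (horizontal axis) of the tested genes of 6 related lists in the 3 comparisons, 1 point per gene, red where the adjusted p was under 0.05, with the list's median as a black line. The medians lie between -0.083 and 0.10, and no point is red in db/db+TSF against db/db.

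**Figure D4:**
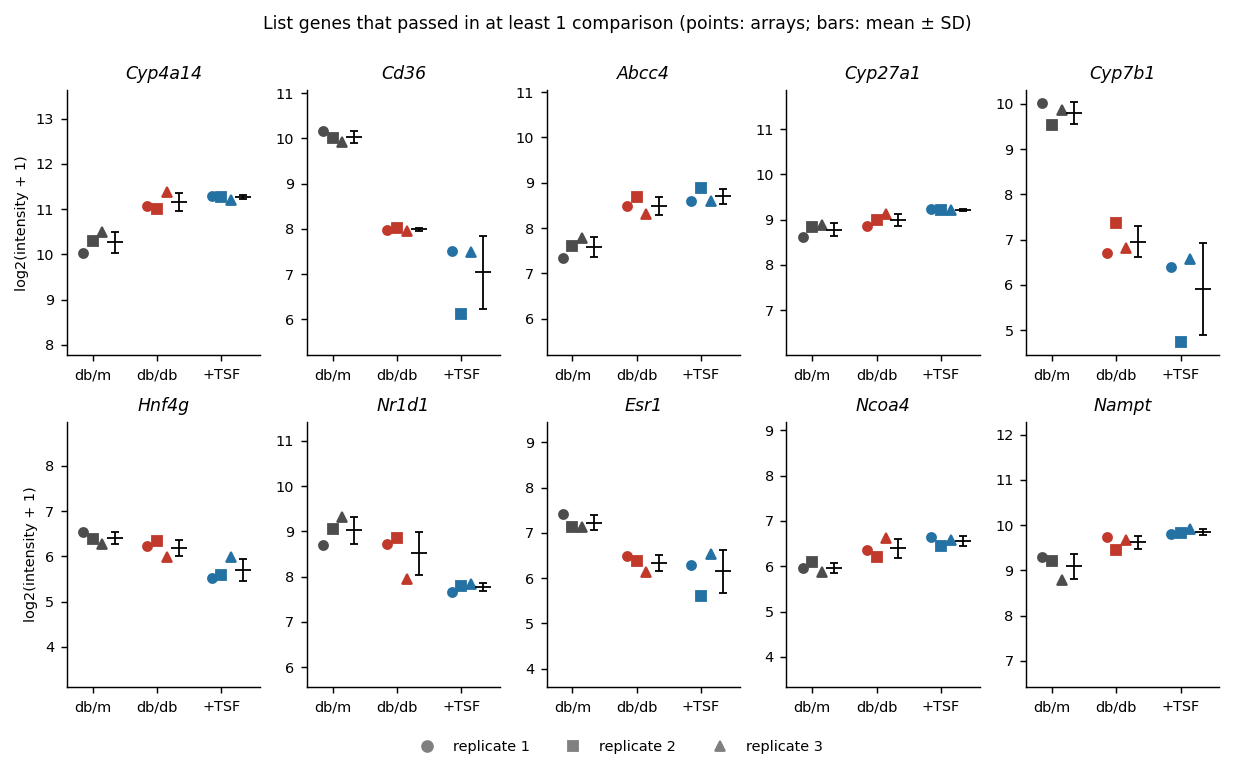
Levels of the 10 list genes that passed in at least 1 comparison on the log2(intensity + 1) scale, drawn as in the plot of the members by array, with the same log2 range in each panel. Cd36 and Cyp7b1 show the widest gaps between db/m and the diabetic groups and a low value in db/db+TSF replicate 2.

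Markers of other cells moved beside these genes, and their part in the results was not tested. Of 5 macrophage markers Adgre1, Csf1r and Cd68 fell in db/db+TSF against db/m, and the summed level ranged over 29.7 to 30.1 for db/m arrays, 28.4 to 28.8 for db/db and 27.1 to 28.3 for db/db+TSF. Of 6 loop and distal tubule markers Calb1 and Pvalb rose in the same comparison and Calb1 also in db/db against db/m (adjusted p = 0.0483), with a summed level of 56.9 to 57.3 in db/m and 58.4 to 59.6 in db/db+TSF. The 7 collecting duct markers summed to between 57.3 and 58.6 for db/m arrays, 59.2 and 60.7 for db/db, and 58.5 and 59.8 for db/db+TSF. Of 4 lymphocyte markers Cd3e fell in both diabetic groups against db/m (adjusted p = 0.0239 and 0.0467), and the summed level was 15.4 to 15.5 in db/m and 13.3 to 14.5 over the diabetic arrays. Of 5 mesangium, pericyte and smooth muscle markers Rgs5 rose in both (adjusted p = 0.0233 and 0.0161). Relative to db/m, 3 of the 5 markers lay above 0 and 2 below for untreated diabetic mice (median 0.21). For the treated mice 2 lay above 0 and 3 below (median -0.014). The summed level of these markers was 38.3 to 38.99 in db/m and 38.8 to 39.7 over the diabetic arrays. Adrenal cortex markers were near the bottom of the scale: 3 of 5 were too dim to be tested.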

How the data were processed

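The deposited table held 1 linear intensity per probe set and array; Expression Console and Transcriptome Analysis Console from Affymetrix are the tools listed per the submitters' processing notes, with normalization settings not given here. Of 41345 probe sets, 23521 had 1 gene symbol in the platform annotation, and the brightest stood for its gene; each member had a single such probe set. Intensities were taken as log2(value + 1), which understates changes of dim genes, and genes averaging less than 2.65, the 30th percentile over probe sets, were left out. limma version 3.58.1 in R version 4.3.3 fitted 1 mean per group to all 9 arrays with eBayes moderation, and adjusted p-values are Benjamini-Hochberg over 17740 genes (threshold 0.05). Standard errors and 95% intervals are from this fit. Data simulated with independent noise were used to check recovery of added differences and false calls in db/db against db/m. The standard errors and intervals were not checked in this way. The number of arrays limits the precision, and p-values weigh each difference against the spread between these samples, with variances moderated across genes.

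The members and lists (231 of 252 entries matched, none of the red cell markers) were chosen from textbook knowledge with earlier results of these data known. Named from the lists were genes past the threshold or, where none passed, the 3 of smallest p. Alternatives covered the probe set, filter, pseudocount, scaling, variance model, arrays in the fit, the replicate block and leaving out each array. Motifs were searched in RefSeq promoter windows.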

Additional observations from a re-analysis of the deposited data

How the results depend on the processing

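The differences of the members and of the called list genes, and the counts called, were recomputed under 12 alternatives and with each array left out; other genes named and groups without overlap were not. The count of members called in db/db+TSF against db/m was 1, 0 without moderation, and 0 to 1 with an array left out; in the other comparisons it was 0 throughout. Over all genes, 187 were called in db/db against db/m, 26 without moderation and 72 to 194 with an array left out; 556 were called in db/db+TSF against db/m, 73 without moderation and 213 to 563 with an array left out. The counts that fell by over 1.5 times were, for db/db against db/m, 86, 122 and 109 on omitting db/m replicates 1, 2 and 3, 72, 121 and 82 on omitting those of db/db, and 116 on omitting db/db+TSF replicate 3. For db/db+TSF against db/m they were 220 and 370 on omitting db/m replicates 1 and 2, and 224 and 213 on omitting db/db+TSF replicates 2 and 3. Of the PPAR targets, 2 passed in db/db+TSF against db/m, 4 with an intensity trend and robust settings and 5 with array weights. Of the PGC-1 and ERR targets 0 passed there, 2 with trend and robust settings, and 1 each with pseudocount 16, quantile normalization, array weights, the stricter filter or only the 6 arrays compared. Of the other coregulators 1 passed there and 3 with pseudocount 16. For db/db against db/m, pseudocount 16 called 1 coregulator, the replicate block, array weights and the 6 arrays each called 1 other nuclear receptor, and trend and robust settings left 1 of 2 bile acid genes. Signs turned for the following members. In db/db against db/m Ppargc1b was -0.026 after quantile normalization, and with array weights Ppard was 0.0024 and Pparg -0.0064. With an array left out, Ppard ranged from -0.20 to 0.11, Pparg from -0.018 to 0.19, Nr1h4 from -0.040 to 0.21 and Ppargc1b from -0.11 to 0.16. In db/db+TSF against db/db Esrra was -0.057 after median scaling and -0.0026 with array weights, and with an array left out Esrra ranged from -0.047 to 0.050 and Ppargc1a from -0.035 to 0.030. In db/db+TSF against db/m Nr0b2 was -0.0020 after median scaling, and with an array left out Nr0b2 ranged from -0.076 to 0.18, Ppard from -0.29 to 0.018 and Rxra from -0.15 to 0.015. The cause of these changes was not tested.

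The labels do not say that replicate numbers pair the samples. Of 9 same-numbered pairs 2 had a correlation of deviations above 0.1 (range -0.079 to 0.15), and 3 of 9 arrays correlated best with their own number. Deviations from means of 3 arrays cannot show whether the numbers pair the samples. With the replicate block 137 genes were called in db/db against db/m, 0 in db/db+TSF against db/db and 434 in db/db+TSF against db/m; Ppara kept its call (adjusted p = 0.0409) and Cyp27a1 did not (0.0592). The Cyp27a1 call was also lost with pseudocount 0 (0.0525), median scaling (0.0687) and only the 6 arrays compared (0.065). Signal over background could not be judged, since no detection calls were used.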

Other observations

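Another partner receptor, named after its values were seen, had its lowest levels in the treated mice. Rxrb, the retinoid X receptor beta, measured 7.02, 7.05 and 7.26 in db/m, 6.92, 7.13 and 7.03 in db/db and 6.85, 6.77 and 6.73 in db/db+TSF. The treated arrays lay below all others, and the difference from db/m was -0.33 (95% interval -0.54 to -0.11, limma adjusted p = 0.107). Nr1h3, the liver X receptor alpha, had means of 7.29 ± 0.16 for db/m, 7.04 ± 0.030 for db/db and 6.96 ± 0.15 for db/db+TSF (SD, n = 3), and did not pass in any comparison. Hnf4a, the main receptor of proximal tubule identity, averaged 10.78, 10.68 and 10.63 in the same order, with differences whose intervals all included 0.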
